A study of Mus musculus with 7 samples.

Results

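Transcripts of the conjugating enzymes of liver detoxification were examined in newborn mouse liver with 56 probe sets for 44 genes, out of 45101 probe sets on the array. A probe set was a member when the platform annotation gave it 1 gene symbol and that symbol named a numbered sulfotransferase (Sult), UDP-glucuronosyltransferase (Ugt) or glutathione transferase (Gst) gene. The rule used names and no measured value. It gave 15 Sult probe sets for 13 genes, 14 Ugt probe sets for 11 genes and 27 Gst probe sets for 20 genes. Another 5 probe sets that carry several symbols of these families were left out, and the Ugt1a genes were not analysed here.

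The livers came from 3 wild type and 4 glycerol kinase knockout male pups of strain C57BL/6J on day of life 1. Glycerol kinase phosphorylates glycerol, and the design text describes pups of this age as free of outward signs of its deficiency. The wild type pups were littermates of knockouts, each liver gave 1 RNA preparation and 1 Affymetrix array, and the litters and the knockout allele are not given in the sources used here. The transcript of the targeted gene was not analysed here, so the genotype labels were not checked by it.

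Conjugation is the step of drug and hormone metabolism in which a polar group is joined to a molecule so that it can leave the cell in bile or urine. Sulfotransferases move a sulfonate group from the donor PAPS to steroids, phenols, amines and bile acids, glucuronosyltransferases move glucuronic acid from UDP-glucuronate, and glutathione transferases join glutathione to electrophiles. Liver is a main site of all 3 reactions, and many of their genes are switched on around and after birth. The enzymes of each family have overlapping substrates, and in the mouse many of their genes lie side by side in clusters of recent copies.

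Values are intensities on a linear scale, as deposited. A fold change is the difference between group means of log2(intensity + 16), knockout minus wild type, with the standard error (SE) from limma. A probe set was tested when its mean intensity over the 7 arrays was above the median of all probe sets, which was 102.3, and a call meant p under 0.05 after Benjamini-Hochberg adjustment over all 22518 tested. Of these, 941 (4.18%) were called, 520 (2.31%) higher and 421 (1.87%) lower in knockouts. Knockout 3 stood apart from the other 6 arrays. Of 5 exocrine pancreas transcripts measured, 4 were far higher in it (Ctrb1, a pancreatic protease precursor, had an intensity of 3162.7 against 5.1 to 12.3 elsewhere), and its summed pancreas list was 7360 against 929 to 2005 on the other arrays. Its 3'/5' signal ratios were the highest of the 7 arrays for all 4 control transcripts on the array, for example 1.07 for Gapdh against 0.9 to 0.96. Hepatocyte markers were present on every array, with 0 of 12 tested called by limma (1 at an unadjusted p under 0.05) and sums of 338436 to 381345 in wild type and 324763 to 413565 in knockout, the highest in knockout 3. Of 10 erythroid markers tested 3 were called lower in knockouts, and the list's sum was 77786 to 89165 against 97808 to 111683. Of 3 tested stomach and gut lining markers 1 was called higher. This was Fabp2, an intestinal fatty acid binding protein, at 1.99 ± 0.42 (limma adjusted p = 0.0312). That list's sum was 1724 to 3162 in knockouts against 1434 to 1544, with Fabp2 itself at means of 954.5 against 224.1. Tff1 and Lgals4 were tested and not called. Muc5ac, Tff2, Gkn1, Vil1 and Cdx2 did not pass the filter, with group means of 15.1 to 33.9. Of 7 endothelial markers 0 were called by limma and 3 had an unadjusted p under 0.05. Of all tested probe sets 21.8% had an unadjusted p under 0.05 in limma. What these marker lists contribute to the results on the conjugating enzymes was not tested. In a whole liver, fewer cells of a type and less RNA per cell cannot be told apart.

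Of the 56 member probe sets 38 passed the filter, for 30 genes. Of these 38, 7 were called (18.4%), against 4.18% of all tested probe sets. Transcripts of 6 genes rose in knockouts. These were Sult2a2 and Sult2a8 of the hydroxysteroid sulfotransferases, Ugt2b34 and Ugt2b35 of the glucuronosyltransferases, and Gstt2 and Gstz1 of the glutathione transferases. Sult3a1, an amine sulfotransferase, fell. By family 3 of 7 Sult, 2 of 8 Ugt and 2 of 23 Gst probe sets were called. The groups did not overlap for 10 members, 8 of them higher in knockouts, against 21.2% of all tested probe sets without overlap in either direction and 9.44% higher.

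**Figure D1:**
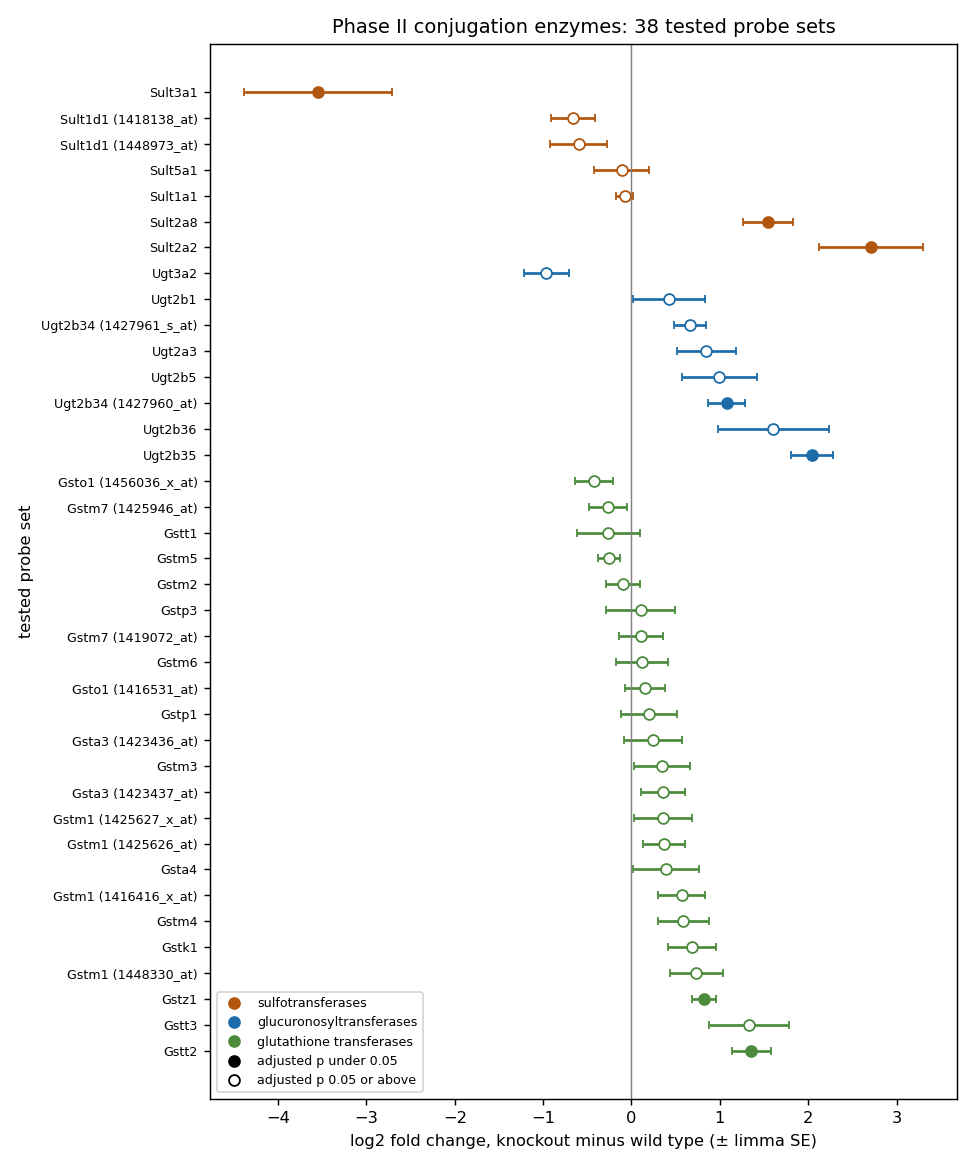
Fold changes of the 38 tested member probe sets, as log2(intensity + 16) in 4 knockout minus 3 wild type livers, with points for estimates and bars for ± 1 limma SE. Filled points passed the adjusted p threshold of 0.05 (7 probe sets), and Sult3a1 at the top has both the largest decrease and the widest bar.

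For 6 of the 7 called members the groups did not overlap, Sult2a2 being the exception. Ugt2b35 alone passed in all 7 fits that each left out 1 array, with adjusted p between 0.00289 and 0.026. The number of members called higher was 6 with all arrays and between 1 and 6 with 1 left out. Leaving out wild type 3 left 1 such call, leaving out wild type 1 or knockout 4 left 3, and leaving out wild type 2 left 4. The single lower call was lost without wild type 2, wild type 3, knockout 2, knockout 3 or knockout 4.

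**Figure D2:**
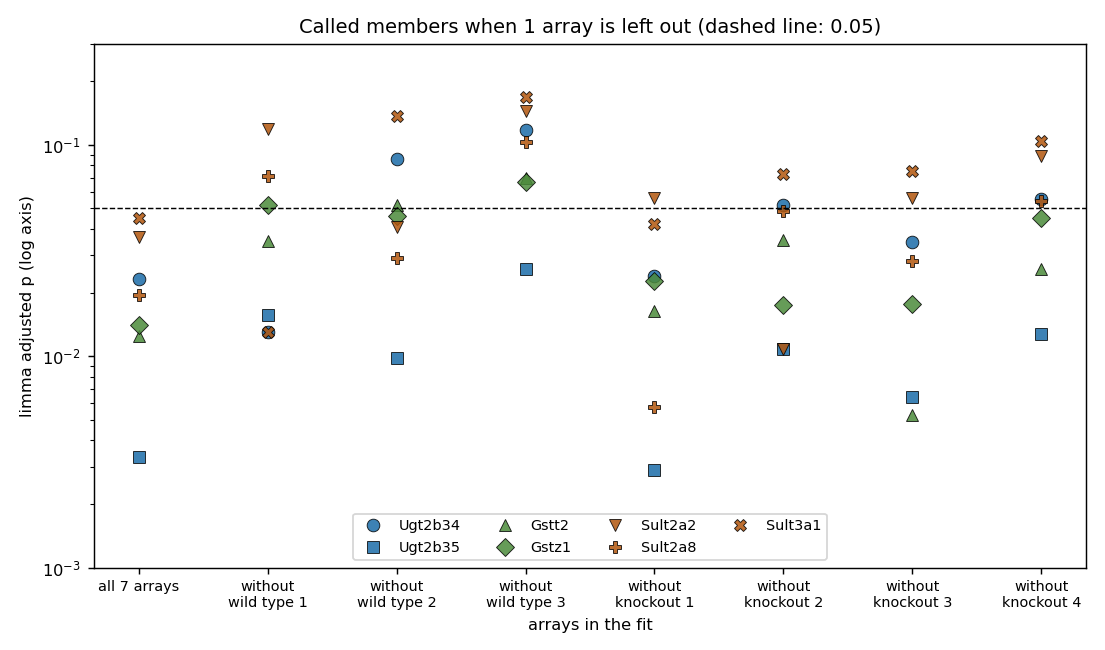
Adjusted p of the 7 called members, on a log axis, with all 7 arrays and with each array left out in turn, 1 symbol per gene and colours as families. Points under the dashed line at 0.05 passed, and Ugt2b35 stays under it in all 8 columns.

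Knockout 3 also carried the highest value of many members. It was the highest of the 7 arrays in 24 of 38 members (63.2%), against 15.7% of all tested probe sets, and in 17 of 23 Gst members. It was the lowest in 2 members, against 26.4% of all tested. Of the 38 members 27 had a positive fold change, against 45.9% of all tested. Ugt2a3 passed the filter through the knockouts only, and Sult3a1 through the wild type group only. The median fold change was 0.36 over the members and -0.03 over all tested probe sets. Without knockout 3, where Ugt2a3 did not pass the filter, the members' median was 0.02 and that of all tested -0.01. On those 6 arrays 5 of 37 tested members were called, all 5 higher and 0 lower, against 4.13% of all tested called, 2.36% higher and 1.77% lower. The summed pancreas markers, the 3'/5' ratios and the summed hepatocyte markers were highest on that array. Its summed endothelial (8763), stellate cell (16770) and megakaryocyte (17855) markers were the lowest of the 7 arrays, against at least 13306, 19128 and 20941 in wild type livers. The part of these in the members' values was not tested.

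**Figure D3:**
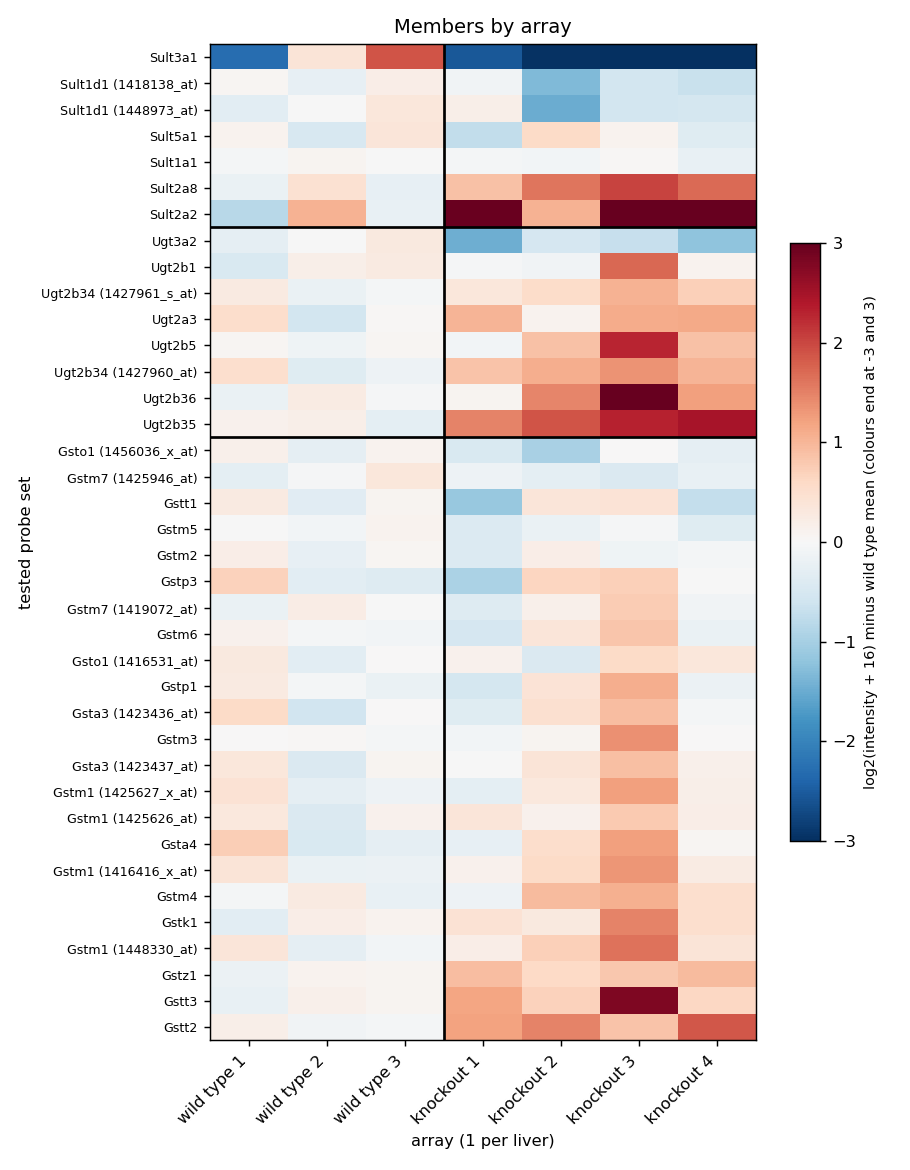
Each tested member in each of the 7 arrays, as log2(intensity + 16) minus the wild type mean, with red above and blue below it and black lines between groups and families. The column of knockout 3 is red in most Gst members, whereas Ugt2b35, Gstt2 and Gstz1 are red in all 4 knockout columns.

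**Figure D4:**
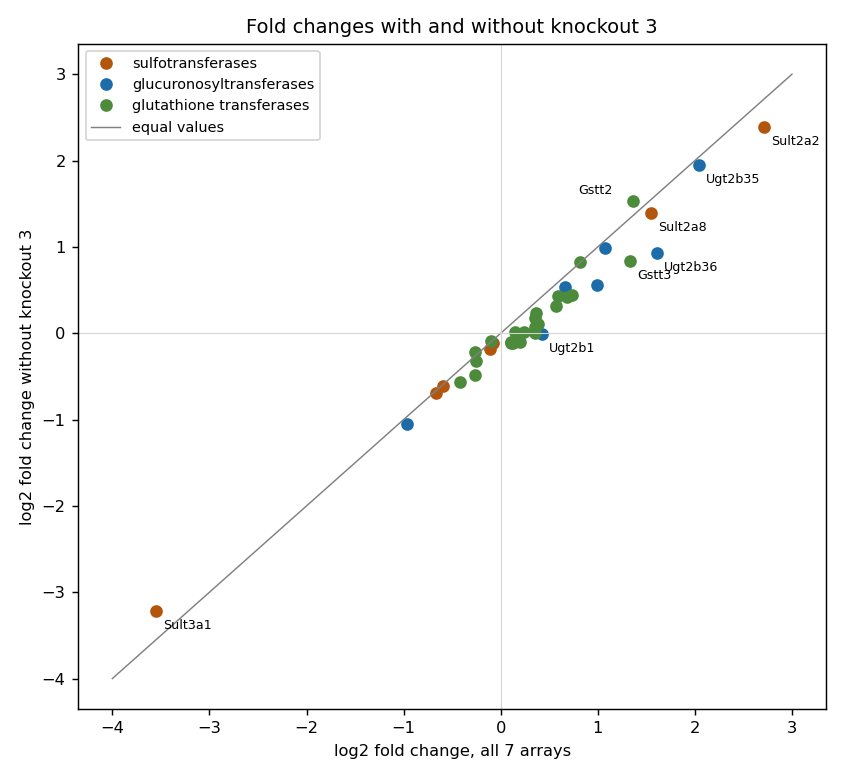
Log2 fold change of the 37 members tested in both fits, with all 7 arrays (x axis) and without knockout 3 (y axis). There is 1 point per probe set, coloured by family, with a line of equal values. Ugt2a3 did not pass the filter without knockout 3 and is not shown. Ugt2b36, Gstt3 and Ugt2b1 lie below the line, at 0.93, 0.84 and -0.01 without knockout 3, while Gstt2 lies above it.

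Among the sulfotransferases, both tested members of the Sult2 class rose, the 1 tested member of the Sult3 class fell, and none of the 3 tested probe sets of the Sult1 class was called. The family's median fold change was -0.11. Sult2a2 and Sult2a8 belong to the hydroxysteroid sulfotransferases, which act on steroids such as dehydroepiandrosterone and on bile acids. Their genes lie in a run of 8 Sult2a genes on chromosome 7 in the RefSeq order of assembly GRCm38.p6, of which only these 2 had a probe set of their own here. Whether these probe sets also pick up transcripts of the other Sult2a genes was not tested.

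Sult2a2 had intensities of 435.6, 1645.3 and 676.6 in wild type 1 to 3 and of 6268.3, 1635.4, 10389.1 and 7143.7 in knockout 1 to 4. The groups overlapped by 1 pair, since knockout 2 lay just below wild type 2. The other 3 knockouts were above every wild type liver. The fold change was 2.71 ± 0.59 (SE), a 6.56-fold rise, with an adjusted p of 0.0366. Within groups Sult2a2 varied more than 99.5% of tested probe sets, with an SD of 1.08 on the log2 scale. Its call was lost without wild type 1 (adjusted p = 0.119), wild type 3 (0.144), knockout 1 (0.0563), knockout 3 (0.0563) or knockout 4 (0.0882). With all arrays it was lost with no filter (0.0662), without the variance trend in limma's eBayes (0.0595) and with a robust trend (0.0769).

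Sult2a8, a bile acid sulfotransferase of mouse liver, had intensities of 141.9, 234.6 and 137.2 in wild type livers. In knockouts they were 317.2, 537.8, 723.0 and 574.8, so every knockout lay above every wild type. The fold change was 1.55 ± 0.28, a 2.92-fold rise, with an adjusted p of 0.0194. The call stood without knockout 3 (1.39, adjusted p = 0.0282). It was lost without wild type 1 (0.0716), wild type 3 (0.103) or knockout 4 (0.0544).

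Sult3a1 sulfonates amines and is known in adult mouse liver for higher levels in females. In these male pups its intensities were 156.4, 1082.3 and 3071.3 in wild type and 127.5, 91.6, 20.1 and 30.7 in knockout livers. No knockout reached the lowest wild type, but wild type 1 lay close to knockout 1 and far below the other wild types. The fold change was -3.55 ± 0.83, with an adjusted p of 0.0451. The probe set passed the filter through the wild type group (mean 1436.7) and not through the knockouts (mean 67.5), and 2 knockouts lay under 50, so the size of the fall rests on the number added before the log. It was -3.92 with 1 added and -2.90 with 64. Its within-group SD of 1.52 was larger than that of 99.8% of tested probe sets. Leaving out 1 array moved the fold change between -4.69 and -2.61, the smaller size coming without wild type 3 (adjusted p = 0.168). The call was also lost without wild type 2 (0.137), knockout 2 (0.0725), knockout 3 (0.0751) and knockout 4 (0.104). With all arrays it was lost with no filter (0.0823), without the variance trend (0.0691) and with a robust trend (0.0907).

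Sult1a1, the phenol sulfotransferase, was among the steadiest members. It had intensities of 11436.1, 12616.4 and 11958.1 in wild type and of 11581.4, 11386.3, 12225.7 and 10344.2 in knockout livers. The groups overlapped, and the fold change was -0.08 ± 0.10 with an adjusted p of 0.691. Only 3.2% of tested probe sets varied less within groups. Sult1d1, which acts on catecholamines and other small phenols, had 2 probe sets with fold changes of -0.66 ± 0.25 (adjusted p = 0.157) and -0.60 ± 0.32 (0.313), neither called. Sult5a1 had -0.11 ± 0.31.

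The other 8 Sult probe sets did not pass the filter. They belong to Sult1b1, Sult1c1, Sult1c2, Sult1e1, Sult2b1, Sult4a1 (2 probe sets) and Sult6b1. Sult1c2, chosen after its values were seen, had intensities of 36.2 to 45.2 in wild type and of 33.7, 43.7, 435.7 and 50.3 in knockouts, so that knockout 3 alone stood high. Sult1e1, the oestrogen sulfotransferase, likewise chosen afterwards, had 25.0, 46.8 and 47.8 in wild type. In knockouts it had 100.3, 4.9, 4.7 and 3.7, so knockout 1 was the highest of all 7 and the other 3 the lowest.

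**Figure D5:**
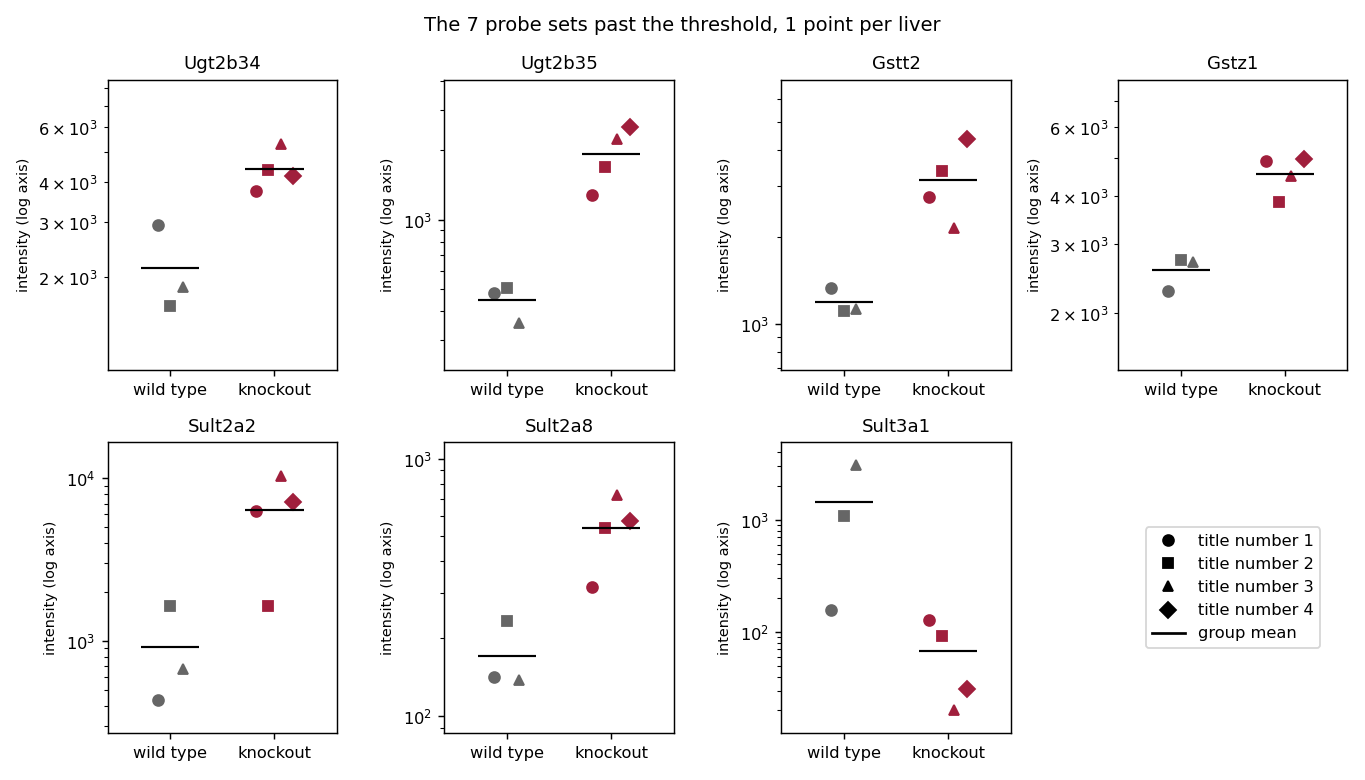
Intensity of the 7 called members in each liver, on log axes of their own range, with 1 symbol per number in the sample titles and a line at each group mean. The groups separate for every gene shown except Sult2a2, where knockout 2 (1635.4) lies beside wild type 2 (1645.3).

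Among the glucuronosyltransferases 7 of 8 tested probe sets had positive fold changes and 2 were called, both of the Ugt2b class. Of the 7, Ugt2a3 passed the filter through the knockouts only. The family's median was 0.92 over the 8 probe sets. It was 0.56 over the 7 tested without knockout 3, where Ugt2a3 did not pass the filter. Ugt2b enzymes glucuronidate steroids, bile acids, fatty acids and many drugs. In the RefSeq order of GRCm38.p6 their genes lie side by side on chromosome 5 in a run of 10 Ugt2 genes, with 0 other coding genes inside it. The order is Ugt2b34, Ugt2b1, Ugt2b35, Ugt2b36, Ugt2b5, Ugt2b37, Ugt2a3, Ugt2b38, Ugt2a1 and Ugt2a2, and the first 8 are members.

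Because the members of this cluster differed in level and in fold change, the sequence just before the start of 6 of them is shown, from position -130 to -1 on the gene's strand, from RefSeq on GRCm38.p6. Capitals mark stretches shared letter for letter, one of 22 bases and one of 14 bases, and Ugt2b34 holds neither.
Ugt2b34 (chr5:86906938-86907067, minus strand): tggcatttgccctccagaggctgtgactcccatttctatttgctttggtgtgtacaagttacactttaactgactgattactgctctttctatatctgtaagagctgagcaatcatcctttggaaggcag
Ugt2b35 (chr5:87000730-87000859, plus strand): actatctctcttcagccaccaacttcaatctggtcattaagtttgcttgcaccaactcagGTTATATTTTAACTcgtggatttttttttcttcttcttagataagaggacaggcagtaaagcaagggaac
Ugt2b36 (chr5:87092556-87092685, minus strand): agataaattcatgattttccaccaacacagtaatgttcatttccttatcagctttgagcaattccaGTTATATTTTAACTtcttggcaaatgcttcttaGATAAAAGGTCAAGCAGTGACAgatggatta
Ugt2b5 (chr5:87140341-87140470, minus strand): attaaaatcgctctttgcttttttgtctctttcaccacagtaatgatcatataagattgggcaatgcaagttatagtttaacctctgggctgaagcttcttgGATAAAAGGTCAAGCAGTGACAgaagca
Ugt2b37 (chr5:87254789-87254918, minus strand): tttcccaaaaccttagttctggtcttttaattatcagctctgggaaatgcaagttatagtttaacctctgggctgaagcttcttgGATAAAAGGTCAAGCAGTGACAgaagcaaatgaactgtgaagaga
Ugt2b38 (chr5:87424204-87424333, minus strand): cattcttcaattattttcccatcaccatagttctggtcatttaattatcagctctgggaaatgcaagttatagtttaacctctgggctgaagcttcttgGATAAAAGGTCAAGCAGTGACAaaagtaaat
The 22-base run stands in the promoters (from 250 bases before to 50 after the start) of Ugt2b36, Ugt2b5, Ugt2b37 and Ugt2b38, and in no other of 32851 RefSeq mouse promoters of that length. The 14-base run stands only in Ugt2b35 and Ugt2b36. Ugt2b37 and Ugt2b38 shared the longest stretch, 82 bases, against a median of 8 bases over the 1213 pairs of member promoters from different genes. These are descriptions of near copies and show nothing about which factors bind there. The 4 genes with the 22-base run had unlike values, since Ugt2b36 and Ugt2b5 passed the filter while Ugt2b37, at intensities of 0.8 to 2.4, and Ugt2b38, at 3.1 to 27.7, did not. Probes of such near copies can pick up signal of a neighbour's transcript, so values of the single genes are uncertain to that extent.

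Ugt2b35 had the smallest adjusted p of all members. Its intensities were 482.0, 504.4 and 355.7 in wild type and 1274.4, 1687.5, 2236.8 and 2526.1 in knockout livers. The lowest knockout was well above the highest wild type. The fold change was 2.04 ± 0.24, a 4.11-fold rise, with an adjusted p of 0.00335. It was 1.95 without knockout 3 (adjusted p = 0.00638).

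Ugt2b34 had 2 probe sets, both higher in every knockout than in any wild type liver. The called one had intensities of 2934.5, 1614.5 and 1860.3 in wild type. In knockouts it had 3752.9, 4381.1, 5310.6 and 4193.1. Its fold change was 1.08 ± 0.21, a 2.11-fold rise, with an adjusted p of 0.0231. The other probe set, whose probes may match further transcripts, had 3772.1, 2702.1 and 2986.2 against 3926.2, 4612.4, 6402.7 and 5118.4, with a fold change of 0.66 ± 0.18 and an adjusted p of 0.0708. The called probe set lost its call without wild type 2 (0.0857), wild type 3 (0.118), knockout 2 (0.0519) or knockout 4 (0.0554), and stood without knockout 3 (0.98, adjusted p = 0.0348).

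Ugt2b5 and Ugt2b36, the latter chosen after its values were seen, were not called and had smaller fold changes without knockout 3. Ugt2b5 had 1487.5, 1301.3 and 1470.5 in wild type and 1345.4, 2626.1, 6989.2 and 2614.5 in knockouts, so knockout 1 lay within the wild type range. Its fold change was 0.99 ± 0.42 (adjusted p = 0.206), and 0.56 without knockout 3. Ugt2b36 had 258.9, 357.8 and 291.0 against 320.6, 857.1, 3880.4 and 731.3. Again knockout 1 lay among the wild types and knockout 3 far above the rest. Its fold change was 1.61 ± 0.63 (adjusted p = 0.175), and 0.93 without knockout 3 (adjusted p = 0.14).

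The remaining tested Ugt genes were not called, and are named here with their values in view. Ugt2a3 had a fold change of 0.85 ± 0.34 (adjusted p = 0.178). Ugt2b1 had 287.4, 454.9 and 481.8 in wild type and 389.7, 368.1, 1341.1 and 431.7 in knockouts, with a fold change of 0.42 that became -0.01 without knockout 3. Ugt3a2, of a class that uses other UDP sugars than glucuronate, was the 1 tested Ugt member with a negative fold change. It had 421.0, 501.2 and 626.2 in wild type against 175.1, 355.5, 310.3 and 211.1 in knockout livers. The groups did not overlap, and the fold change of -0.96 ± 0.25 missed the threshold with an adjusted p of 0.0610. The 6 untested Ugt probe sets were those of Ugt2b37, Ugt2b38, Ugt3a1 (2 probe sets) and Ugt8a (2 probe sets).

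Among the glutathione transferases 18 of 23 tested probe sets had positive fold changes, with a median of 0.35, and 2 were called. Without knockout 3 the median was 0.02 and the same count of 2 was called, Gstt2 and Gstz1. Of the 23, 4 had no overlap between groups and were higher in knockouts, namely Gstt2, Gstz1, Gstt3 and Gstk1. Of all tested probe sets 21.2% had no overlap, 9.44% being higher and 11.8% lower. By class, 1 of 3 theta and the 1 zeta probe set were called, and 0 of 11 mu, 0 of 3 alpha, 0 of 2 pi, 0 of 2 omega and 0 of 1 kappa passed in limma. At an unadjusted p under 0.05 these were 1 mu, 0 alpha, 0 pi, 0 omega and 1 kappa, against 21.8% of all tested probe sets.

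Gstt2, a theta class enzyme, had intensities of 1325.3, 1102.6 and 1123.1 in wild type livers. In knockouts it had 2736.7, 3363.5, 2144.5 and 4368.2. Every knockout exceeded every wild type, and knockout 3 was the lowest of the 4 knockouts. The fold change was 1.36 ± 0.22, a 2.56-fold rise, with an adjusted p of 0.0125, and it was 1.53 without knockout 3 (0.00525). The call was lost without wild type 2 (0.0518) or wild type 3 (0.0699).

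Gstz1, the maleylacetoacetate isomerase of tyrosine breakdown, had 2279.7, 2739.8 and 2705.5 in wild type and 4915.0, 3861.5, 4489.9 and 4964.9 in knockout livers. The groups were well apart and the spread within them small, with an SD of 0.16 on the log2 scale. The fold change was 0.82 ± 0.14, a 1.76-fold rise, with an adjusted p of 0.0140. It was 0.82 without knockout 3 (0.0176). The call was lost without wild type 1 (0.0518) or wild type 3 (0.0667).

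The other theta genes are neighbours of Gstt2 on chromosome 10, in the order Gstt3, Gstt1, Gstt4 and Gstt2, and none of them was called. Gstt3 had 195.5, 257.3 and 246.4 in wild type and 549.2, 385.8, 1716.9 and 365.9 in knockouts. The groups did not overlap, but knockout 3 was far above the rest. The fold change of 1.33 ± 0.45 had an adjusted p of 0.123, and without knockout 3 it was 0.84 (0.0546). Gstt1 had a fold change of -0.26 ± 0.36 (0.721), and Gstt4, with group means of 6.8 and 5.4, did not pass the filter.

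Gstp1, the pi class enzyme, had 15207.7, 12086.2 and 10918.0 in wild type and 8793.3, 16779.0, 26972.1 and 11089.7 in knockout livers. The knockouts spanned the whole wild type range, and the fold change of 0.20 ± 0.32 (adjusted p = 0.762) became -0.10 without knockout 3. Gstm5 had 7119.3, 6732.6 and 7703.6 against 5369.7, 6252.1, 6961.2 and 5567.7, with a fold change of -0.26 ± 0.12 (0.258). Gsto1, an omega class enzyme that reduces dehydroascorbate, had 2 probe sets of opposite sign, at 0.15 ± 0.23 and -0.42 ± 0.22, neither called.

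The mu class genes lie together on chromosome 3, in the order Gstm5, Gstm7, Gstm6, Gstm3, Gstm2, Gstm1 and Gstm4. Gstm1, named with its values in view, had 4 tested probe sets with fold changes of 0.36 to 0.73, none called, and all 4 were smaller without knockout 3, at 0.07 to 0.44. The other mu genes ranged from -0.27 to 0.59. Gstk1, a kappa class enzyme of mitochondria and peroxisomes, had 662.3, 958.0 and 892.3 in wild type and 1130.0, 1022.2, 2339.6 and 1189.2 in knockouts, a fold change of 0.69 ± 0.27 (adjusted p = 0.179). The 4 untested Gst probe sets were those of Gsta2, Gsto2, Gstt4 and 1 of the 2 for Gstm3.

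All 18 untested member probe sets had means of 1.7 to 99.2 over the 7 arrays. Tested without the filter, 0 of them passed by limma and 0 had an unadjusted p under 0.05, with a smallest adjusted p of 0.378 and fold changes of -0.88 to 0.78.

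Many glutathione transferase genes are known targets of NFE2L2, which binds antioxidant response elements. The core letters TGACNNNGC, searched on both strands, were in 3 of 50 member promoters (6.0%) and in 12.39% of 32851 RefSeq mouse promoters of 300 bases. These 3 stretches are shown because they are the only member promoters with that core, with the core in capitals, on GRCm38.p6 and the gene's strand.
Gsta3 (chr1:21240448-21240488, plus strand): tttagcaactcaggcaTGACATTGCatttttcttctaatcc
Gstm5 (chr3:107895796-107895836, plus strand): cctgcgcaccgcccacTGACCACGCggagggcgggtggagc
Gstm7 (chr3:107931719-107931759, minus strand): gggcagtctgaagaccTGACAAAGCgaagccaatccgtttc
Gsta3, Gstm5 and Gstm7 were not called. The search took the letters TGACNNNGC only, so a stretch such as TGAGTCAGC in the Gstp1 promoter was not counted. Sequence outside the 300 bases was not searched, so these shares do not say which genes lack the element. Promoters were found for 39 of 44 member genes, among them 5 of the 7 called genes, and none of these 5 held this core. The letters TNGCGTG of the AHR and ARNT site were in 2 member promoters (4.0%, against 5.07% of all), those of Gsta2 and Sult1d1. GTTAATNAT, the start of the HNF1 site, was in 1 (2.0% against 0.8%), that of Sult1d1, and AGGTCAAAG, the start of a direct repeat bound by HNF4A and PPARA, was in 0 (0.0% against 0.43%). None of these 3 was in a called member's promoter.

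Genes around the conjugating enzymes were taken from 10 lists of donor synthesis, regulation, phase I metabolism and transport. Of 126 measured genes 105 were tested, each by its brightest probe set, and 8 rose and 1 fell, with a median fold change of 0.15. The share called was 8.57%, against 4.18% of all tested probe sets. Knockout 3 was the highest array in 47 of the 105, against 15.7% of all tested probe sets. Here and in the lists below genes are set beside probe sets, several of which can measure 1 gene. The share over the brightest probe set of every gene was not computed. Leaving out wild type 3 left 2 calls among the list genes, knockout 4 left 4, wild type 1 or wild type 2 left 5 each, and knockout 1 gave 14.

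Of 9 tested genes of sulfate donor synthesis 0 were called by limma, with a median of 0.28. An unadjusted p under 0.05 was reached by 4 of the 9, against 21.8% of all tested probe sets. The smallest p was that of Suox, sulfite oxidase, at 1.13 ± 0.32 with a limma adjusted p of 0.0769. Of 7 genes of UDP-glucuronate synthesis 0 were called and 1 had an unadjusted p under 0.05 (median 0.10, smallest p for Pgm1, phosphoglucomutase, at 0.46 ± 0.13, adjusted p = 0.0764). Of 11 genes of glutathione synthesis and recycling 1 rose. This was Oplah, the oxoprolinase that returns oxoproline to glutamate, from 694.1 ± 195.5 (SD, n = 3) to 1485.8 ± 134.9 (SD, n = 4), a fold change of 1.11 ± 0.19 with a limma adjusted p of 0.0166, lost without wild type 3 (0.0797).

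Among other conjugating enzymes 2 of 8 rose. Acsm3, a medium chain acyl-CoA synthetase, had a fold change of 0.99 ± 0.19 (adjusted p = 0.0234), and Baat, which joins bile acids to taurine or glycine, 0.93 ± 0.20 (0.0327). Acsm3 passed in 3 of 7 fits without 1 array and Baat in 1, and Baat was also lost with no filter (0.0685). Of 7 tested peroxidases and microsomal glutathione transferases 0 were called by limma. An unadjusted p under 0.05 was reached by 3 of them, against 21.8% of all tested probe sets. Mgst1 had the smallest p, at 0.37 ± 0.10 with an adjusted p of 0.075.

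Of 9 tested hydrolases 1 rose, Ephx1, the microsomal epoxide hydrolase, which opens epoxides and does not cleave conjugates. It went from 870.7 ± 29.3 (SD, n = 3) to 4037.4 ± 1906.2 (SD, n = 4), a fold change of 2.09 ± 0.28 with a limma adjusted p of 0.00642. Of 9 tested NFE2L2 targets outside the glutathione transferases 1 rose, with a list median of -0.04. This was Me1, malic enzyme, which makes NADPH and serves fatty acid synthesis, at 1.61 ± 0.21 (adjusted p = 0.00607). Ephx1 and Me1 each passed in all 7 fits without 1 array.

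Among 15 tested receptors and partners 1 rose, Nr1h4, the bile acid receptor FXR, at 1.08 ± 0.23 (adjusted p = 0.0337). Of 20 tested cytochromes P450 of families 1 to 3, 1 rose and 1 fell. Cyp1a2, a target of the aryl hydrocarbon receptor, went from 53.0 ± 38.0 (SD, n = 3) to 715.9 ± 486.1 (SD, n = 4), a fold change of 3.35 ± 0.59 with a limma adjusted p of 0.0179. Its wild type level was near 50, so the size rests on the number added before the log, with 3.91 for 1 added and 2.56 for 64. Cyp2b10, a target of the receptor CAR, went from 300.9 ± 123.9 to 79.5 ± 44.3. Its fold change was -1.75 ± 0.37 with a limma adjusted p of 0.0312. Cyp1a2 passed the filter of 102.3 through the knockouts only, and Cyp2b10 through the wild type group only. Of 10 tested efflux transporters 1 rose, Abcb4, the phospholipid exporter of bile, at 0.63 ± 0.13 (0.0313). Cyp1a2 was lost without wild type 1 (0.0548) or wild type 3 (0.0514), Nr1h4 and Cyp2b10 in 4 of 7 fits without 1 array, and Abcb4 in 5. With no filter calls were lost for Nr1h4 (0.057), Cyp2b10 (0.0637) and Abcb4 (0.0581), and without the variance trend for Nr1h4 (0.0533) and Abcb4 (0.0687).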

How the data were processed

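The values are probe set intensities on a linear scale, as the authors deposited them, 1 column per liver. GCOS is named per the submitters' processing notes, without a version. The sources used here do not say how probes were summarised. Every array's mean, with 2% trimmed from each end, was 500.003, so arrays had been scaled to 1 target, which cannot show a change of total RNA. Array medians on the log2(intensity + 16) scale ran from 6.76 to 6.95, closer than the 0.2 beyond which arrays would have been rescaled. Between 35.4% and 39.4% of probe sets of an array lay under 50, where noise weighs most, and the number of arrays limits the precision. Fold changes of dim probe sets are understated by the added 16.

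After 64 control probe sets were left out, 22518 were compared with limma 3.58.1 in R 4.3.3 (lmFit, eBayes with a trend) without covariates. Groups come from the sample titles, and SDs are over the arrays of a group. Figures were made in matplotlib 3.10.9. Gene IDs matched 44 of 44 member genes to RefSeq's GRCm38.p6 table, used for names and gene order only, and 0 symbols changed. Neither the members nor the pathway and marker lists are independent of these data, since both were chosen with earlier results of them known. The text names called members, the 3 genes of highest mean intensity per family, members without overlap and a log2 change of at least 1, and in each pathway list up to 4 called genes or the 1 of smallest p. Other genes were chosen after their values were seen. On simulated data for this comparison over 22518 probe sets, where 50 probe sets were changed by each fold, the share called was 4% for 1.5-fold, 40% for 2-fold, 88% for 4-fold and 96% for 8-fold changes. Unchanged probe sets made up 8.8% of the simulated calls. Alternatives covered the offset, scaling, filter, variance model, threshold, probe sets per gene, each array left out and replicate numbers as a block. Alternatives for the pathway lists and family medians were added after the data were seen.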

Additional observations from a re-analysis of the deposited data

Results flagged for a closer look

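In 3 of the 38 tested members 1 knockout liver lay far from the other 3, with a gap to its nearest neighbour, as a share of the group's range on the log2(intensity + 16) scale, above Dixon's 95% critical value for 4 samples. Ugt2a3 had an intensity of 73.9 in knockout 2 against 152.5 to 166.5 in the other knockouts. Ugt2b1 had 1341.1 in knockout 3 against 368.1 to 431.7. The tested Gstm3 probe set had 732.6 in knockout 3 against 259.6 to 293.8. Chance alone gives about 1 such gap in 20 groups, and 5.39% of all tested probe sets met the same criterion.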

How the results depend on the processing

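Member fold changes kept their sign under every alternative of offset, scaling, filter, variance model and block. Of 606 fits of single members 559 kept direction and side of the threshold, 31 lost and 1 gained a call, and 15 changed sign, all 15 with 1 array left out and in members not called. With 1 array left out these ran from -0.35 to 0.10 for Sult5a1, -0.009 to 0.60 for Ugt2b1, -0.049 to 0.53 for Gsta3, -0.22 to 0.003 for Gstm2, -0.11 to 0.33 for Gstm6, -0.11 to 0.27 for Gstm7, -0.004 to 0.35 for Gsto1, -0.10 to 0.44 for Gstp1, -0.10 to 0.45 for Gstp3 and -0.49 to 0.028 for Gstt1.

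Counts moved more, and beyond the number of arrays or the threshold the cause was not tested. The count over all probe sets was 941, and 709 with arrays scaled to equal medians and 1038 with quantile normalization. It was 473 with no filter, 570 without the variance trend and 322 with the replicate block. At an adjusted p under 0.01 it was 138, under 0.10 it was 2041, and with 1 array left out it was 137 to 996. Pathway list calls were 9, and 5 with no filter, 5 with the block, 2 under 0.01, 23 under 0.10 and 2 to 14 with 1 array left out. Members called higher were 6, and 3 with the block, 1 under 0.01 and 1 to 6 with 1 array left out. Members called lower were 1, and 0 with no filter, without the trend, with a robust trend, with the block or under 0.01, 2 under 0.10 and 0 to 1 with 1 array left out. Sult calls were 3, and 1 with no filter, without the trend, with a robust trend or with the block, 0 under 0.01 and 0 to 2 with 1 array left out. Ugt calls were 2, and 1 with the block, under 0.01 or with 1 probe set per gene, the brightest, 4 under 0.10 and 1 to 3 with 1 array left out. Gst calls were 2, and 1 with the block or without probe sets of shared-probe suffix, 0 under 0.01 and 0 to 2 with 1 array left out.

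Deviations of same-numbered livers correlated at 0.08, -0.06 and 0.05, within the -0.125 to 0.117 of livers with different numbers, and knockout 4 has no partner. A pairing by number was therefore not seen. Litters are not given, so whether livers shared a litter was not tested. Under the block Sult2a2 (adjusted p = 0.108), Sult3a1 (0.121), Ugt2b34 (0.0724) and Gstz1 (0.0736) lost their calls. Family medians moved beyond the spread between arrays in 2 fits, to 0.28 for Ugt with no filter and 0.018 for Gst without knockout 3. With no filter the dim, otherwise untested Ugt probe sets joined the median, and the fold changes of the tested ones did not change. Intensities near background limit what dim members can show.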
